A study of Mus musculus with 21 samples.

Results

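Early cherry-labelled (ch+) Nes low mesenchymal cells of the bone marrow were compared with Nes low cells of mice that carried no leukemia (ctrl). The members were chosen by their labels: 6 libraries marked as early and cherry positive, and 3 libraries marked as unengrafted, together 9 of the 21 libraries of the series. All cells came from NSG mice carrying a Nestin reporter (Nestin+ NSG), and Nes low refers to cells with a low signal of the green fluorescent protein driven by Nestin. The leukemic mice were 8 to 12 weeks old at transplantation, were not conditioned, and received HL60 or ML1, established human acute myeloid leukemia (AML) lines that had been made by lentivirus to release sLP-mCherry under a mouse PGK promoter. This red protein passes into neighbouring cells, so that ch+ cells are host cells that have taken it up and ch- cells of the same stage have not. Of the ch+ libraries, 523, 524 and 525 came from mice with HL60 and 538, 539 and 541 from mice with ML1, at an early point of leukemic progression. The ctrl libraries 373, 374 and 375 came from untreated mice. For comparison, 6 early ch- libraries and 6 late libraries were used, each with 3 libraries per cell line. The labels of the 3 late ML1 libraries conflict, with a treatment of unengrafted beside a title and a time point of late; they were used as late. By the study's account, ch+ and ch- cells came from the same marrow, but the labels do not say which libraries share a mouse, so all libraries were fitted as independent.

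Nes low cells hold most of the CXCL12-abundant reticular (CAR) cells, stromal cells around marrow sinusoids that supply blood stem cells with CXCL12 and stem cell factor. Stromal sorts from bone can also hold chondrocytes, osteoblasts, smooth muscle cells, pericytes, Schwann cells and leftover blood cells. The model has limits of its own: a Nestin transgene does not mark a single cell type, and NSG mice lack mature B, T and NK cells, so that a lymphoid part of the marrow response is missing.

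The values are the authors' regularized log2 expression values per gene, and every value below is on that scale. The depth of each library is unknown, since the study's methods give only a typical yield, and regularization draws genes with few reads toward their mean, which understates their differences. Taken out of the log2 scale, the values of a library summed to between 11.9 and 14.2 megacounts of normalized signal in ctrl and to between 11.2 and 12.6 in ch+. The sums were 12.3 to 14.7 in ch- and lower, at 7.26 to 9.02, in late libraries, so a share of the library sum is set against a smaller total there. The labels do not say whether libraries came from separate mice, so p-values measure the spread between these libraries, which may be technical. The numbers in the library titles are far apart between ctrl (373 to 375) and ch+ (523 to 541). The labels do not explain them, and any difference in preparation between ctrl and leukemic mice cannot be told apart from engraftment. In bulk RNA, fewer cells of a type and less RNA per cell cannot be told apart.

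The label was checked against markers. Nes itself lay at 7.14, 7.61 and 7.43 in ctrl 373, 374 and 375 and at 6.61 to 7.65 with a median of 7.30 in ch+. The groups overlapped (difference −0.10, SE 0.27, adjusted p = 0.899). The protocol text of the labels speaks of sorting CD31+ endothelial cells, whereas the source name gives Nes low mesenchymal cells. Pecam1, which encodes CD31, lay at 5.33 to 6 in ctrl and at 5.31 to 6.21 in ch+, far below Cxcl12 at 14.89 to 16.34 in the same libraries. None of the 21 tested genes of the endothelial list (28 listed) was called higher. Esam, an endothelial junction protein, was called lower by −1.26, a call that was lost without ctrl 373, ctrl 375 or ch+ 525. The labels also state that blood cells were removed with magnetic beads, and by the study's methods the rest was stained for human and mouse CD45, the red cell antigen Ter119 and CD31 before the sort. Ptprc, which encodes the blood cell antigen CD45, was at 2.49, 2.58 and 2.61 in ctrl and at 3.81 to 5.58 with a median of 4.88 in ch+. All ch+ libraries lay above ctrl (difference 2.23, SE 0.50, adjusted p = 0.00629). Its means in ctrl and late were under the filter on low values (a mean of at least 3.32 over all libraries), which it passed only through the early groups, so that the filter favoured a difference and the test is given as a description. The red cell marker Ly76 has no entry in the table under that symbol. In ctrl and ch+ libraries Xist was high (12.98 to 13.79), and the Y-linked genes Ddx3y, Kdm5d, Uty and Eif2s3y stayed between 1.05 and 2.62.

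Of 12976 tested genes, 800 were called deregulated between ch+ and ctrl at an adjusted p under 0.1 (6.17%). In ch+, 443 were higher (3.41%) and 357 lower (2.75%). Each count of called list members below is to be read beside these shares. The median absolute difference of the called genes was 1.12, and the median difference of all tested genes was 0.0113. With library totals made equal, 541 genes were higher and 270 lower, a share of 66.7% higher beside 55.4%. All 6 ch+ libraries lay above all 3 ctrl libraries for 540 tested genes (4.16%) and below them for 506 (3.9%). Among the called genes this held for 318 of the 443 higher and 263 of the 357 lower. The filter was passed only through the early groups, with means under it in both ctrl and late, by 74 tested genes, 29 of them among the 443, and their calls are a description. Of the genes named in the text these were Ptprc, Atp2a1, Chil3, Elane, Fmnl1, Ikzf1, Klf1 and Mb. Genes with a late mean under the filter and a ctrl mean above it were not counted among the 74. Such genes, with means in ctrl and late, included S100a8 (3.34 and 3.15), Slc4a1 (3.41 and 3.02) and Ltf (3.87 and 3.02). Ckm (3.40 and 2.77) and Acta1 (4.33 and 2.68) were others. The early groups raised their means over all libraries too, so their calls are also a description. Cartilage and smooth muscle genes were among the largest falls, globin and granulocyte genes among the largest rises, and CAR cell genes rose by smaller amounts.

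**Figure D1:**
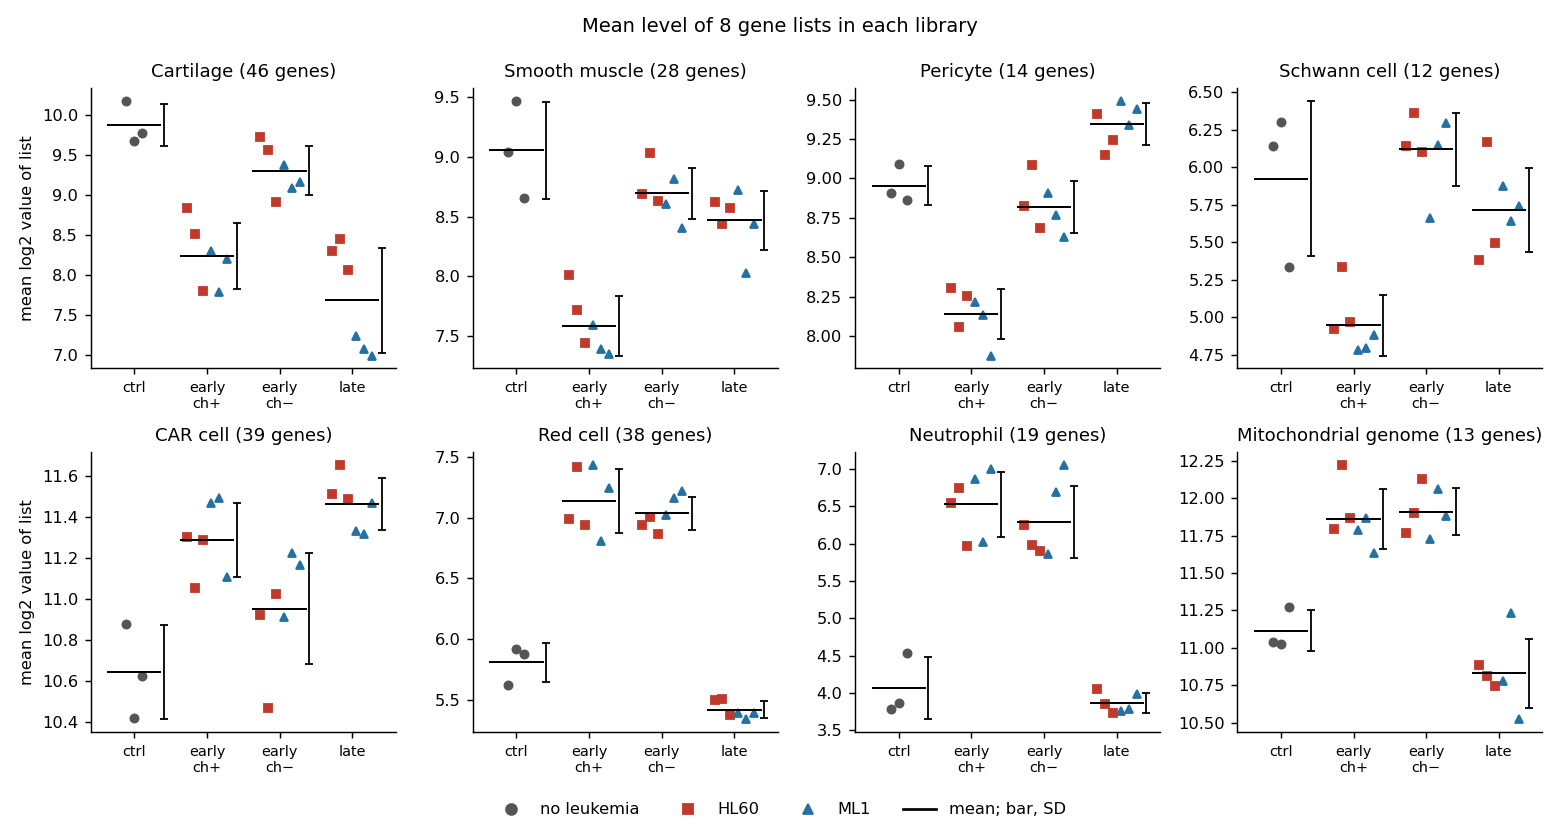
Mean log2 value of the tested genes of 8 gene lists in each of the 21 libraries, by group. Points are libraries (grey without leukemia, red squares HL60, blue triangles ML1), horizontal lines are group means and vertical bars are the SD. Cartilage means lie at 7.79 to 8.84 in ch+ and at 9.68 to 10.18 in ctrl, and red cell and neutrophil means are high in both early groups.

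Genes of cartilage were lower in ch+ cells, with more called falls by number than any other gene list. As a share of tested genes, their 54.3% lay below smooth muscle (64.3%), Schwann cell (58.3%) and pericyte genes (57.1%). Of 50 listed genes, 46 were tested, 25 were lower and none was higher. Their median difference was −1.11, beside 0.0113 for all tested genes. The fall was centred on the matrix, where 18 of 22 tested genes were lower with a median of −3.20. Acan (chr7:79053483-79115099 on GRCm38) encodes aggrecan, the large proteoglycan that holds water in cartilage. It was at 12.41, 11.16 and 11.83 in ctrl 373, 374 and 375, and at 6.49 to 9.91 with a median of 7.79 in ch+. Every ch+ library lay below every ctrl library (difference −3.95, SE 0.54, adjusted p = 1.82e-05). Col9a1 (chr1:24177610-24252684 on GRCm38), a chain of the collagen that coats cartilage fibrils, was at 11.83, 10.62 and 10.76 in ctrl and at 4.39 to 8.89 with a median of 6.62 in ch+. This fall of −4.64 (SE 0.69, adjusted p = 6.14e-05) was the largest of a list member, and the ch+ libraries were widely spread. The partner chains Col9a3 (−4.39) and Col9a2 (−4.13), chondromodulin Cnmd (−4.36), an inhibitor of vessel growth, the matrilin Matn3 (−4.25) and chondroadherin Chad (−4.02) fell in all 6 libraries as well. Col2a1, the main fibril collagen of cartilage, was at 16.96, 15.83 and 16.08 in ctrl and at 12.78 to 14.44 with a median of 13.53 in ch+. It remained abundant there after a fall of −2.72 (SE 0.43, adjusted p = 0.00015).

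Of the 7 cartilage transcription factors, 2 were lower. Sox9 (chr11:112782224-112787760), which switches on cartilage collagens, was at 9.71, 9.44 and 9.54 in ctrl and at 6.47 to 8.12 with a median of 7.21 in ch+ (difference −2.36, SE 0.36, adjusted p = 7.76e-05). The other was Sox6, its partner (−1.06), a call lost without any ctrl library or any of ch+ 523, 524, 525, 538 and 541, while Sox5 (0.11) and Runx2 (−0.14), a regulator of hypertrophy and of bone, were not called. Among growth plate signalling genes, 2 of 8 tested were lower. The hedgehog receptor Ptch1 was at 10.57, 10.54 and 10.55 in ctrl and at 8.56 to 9.43 with a median of 9.10 in ch+ (difference −1.52, SE 0.20, adjusted p = 1.48e-05). The parathyroid hormone receptor Pth1r fell by 0.63, a call lost without any ctrl library, ch+ 524 or ch+ 538, and the hedgehog target Gli1 (−0.82) and the growth plate receptor Fgfr3 (−0.87) were not called. Col10a1, the collagen of hypertrophic chondrocytes, was at 8.99, 7.28 and 7.02 in ctrl. In ch+ it ranged from 3.13 to 8.11 with a median of 3.76, with ch+ 523 inside the range of ctrl, and the call (difference −3.12, adjusted p = 0.0148) was lost without ctrl 373.

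The list did not move as a whole. Its most abundant gene, Prg4, encodes lubricin of joint surfaces and the superficial zone of cartilage, and was at 16.11, 17.15 and 17.09 in ctrl and at 17.61 to 18.83 with a median of 18.10 in ch+. All ch+ values lay above ctrl, with a difference of 1.39 (SE 0.47, adjusted p = 0.102) that missed the threshold. It was past the threshold under 5 alternatives, 1 of them without ch+ 525. With Prg4 included, the summed level of the list was 18.26 to 18.39 in ctrl and 18.10 to 19.07 in ch+. Against ch- cells, 23 of the 25 lower genes were also lower in ch+, a comparison that shares the ch+ libraries, from which an overlap follows in part. In ch- versus late, 24 of the 25 were higher in ch-, as were 38 of all 46 tested cartilage genes, beside 12.3% of all tested genes. The group means of that comparison share no library with those of ch+ versus ctrl. The estimate of spread and the filter come from all 21 libraries.

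Contractile genes were lower in ch+ cells. Of 28 smooth muscle genes, all tested, 18 were lower and none higher, with a median difference of −1.42 (−1.04 without ctrl 374). These were 11 of 17 contractile genes, 3 of 5 regulators and 4 of 6 channels and receptors. Myh11 (chr16:14194535-14291372), the smooth muscle myosin heavy chain, was at 12.68, 13.51 and 12.19 in ctrl and at 9.60 to 10.40 with a median of 9.65 in ch+. The ch+ libraries lay close together and all below ctrl (difference −2.97, SE 0.28, adjusted p = 3.8e-08). Acta2, smooth muscle actin, was at 12.24, 12.92 and 11.61 in ctrl and at 8.86 to 10.36 with a median of 9.50 in ch+ (difference −2.67, SE 0.28, adjusted p = 2.28e-07). Tagln, an actin-binding protein of the same cells, fell by 2.79. Myocd encodes myocardin, the coactivator that drives these genes with serum response factor. It lay at 7.66 to 7.72 in ctrl and at 4.07 to 5.88 in ch+ (difference −2.55, SE 0.38), while Srf, the factor itself, was not called (−0.39). The channel subunit Kcnmb1 (−3.06) had the largest fall of the list. Tpm1, the most abundant gene of the list and expressed in many cell types (−0.34), and the filament gene Des (−0.50) were not called. The summed level of the list was 15.02 to 15.87 in ctrl and 14.24 to 14.64 in ch+.

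Pericyte genes followed with smaller differences: 8 of 14 tested (16 listed) were lower, none was higher and the median was −0.85. Rgs5, a regulator of G protein signalling and the most abundant gene of the list, was at 13.13, 13.10 and 12.71 in ctrl and at 12.03 to 12.45 with a median of 12.28 in ch+ (difference −0.71, SE 0.15, adjusted p = 0.00334). It remained at a high level in ch+ without overlap with ctrl. The adhesion molecule Mcam (CD146) was at 9.09, 9.49 and 8.88 in ctrl and at 5.68 to 8.21 with a median of 7.24 in ch+ (difference −1.99, SE 0.36, adjusted p = 0.000733). Gucy1b1 (−1.76), a subunit of the nitric oxide receptor, was also lower, and so was Ndufa4l2 (−1.76), a mitochondrial protein, whose call was lost without ctrl 373 or ctrl 375. Notch3, a receptor of mural cells counted in both lists, fell by 1. Kcnj8 (−0.27), the potassium channel of pericytes, and Pdgfrb (0.28), the receptor for their growth factor, were not called. The summed level was 14.09 to 14.43 in ctrl and 13.54 to 13.75 in ch+. Of the lower genes, 17 of 18 in the smooth muscle list and 7 of 8 in the pericyte list were also lower in ch+ than in ch-, again with the ch+ libraries shared. In ch- versus late, 8 of the 18 were higher in ch- and 1 lower, beside 8 and 4 of all 28 smooth muscle genes. Of the 8 pericyte genes, 1 was higher and 3 lower, beside 2 and 6 of all 14. Among all tested genes, 12.3% were higher there and 10.2% lower. The pericyte median between late and ctrl was 0.72.

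Schwann cell genes were lower in 7 of 12 tested (16 listed), with a median of −1.36. Sox10, the master regulator of Schwann cells, was at 5.48, 6.56 and 3.6 in ctrl and at 3.07 to 3.33 in ch+, near its floor in all 6 libraries (difference −2.04, SE 0.43, adjusted p = 0.00334). The myelin gene Mbp (−1.84) was lower too. The median of the list was −1.06 without ctrl 373, −1.10 without ctrl 374 and −1.73 without ctrl 375, and it was −0.65 with no filter on low values. The most abundant member was Pmp22, a myelin gene that many other cells use. It set a summed level of 10.98 to 11.65 in ctrl and 11.22 to 11.90 in ch+.

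**Figure D2:**
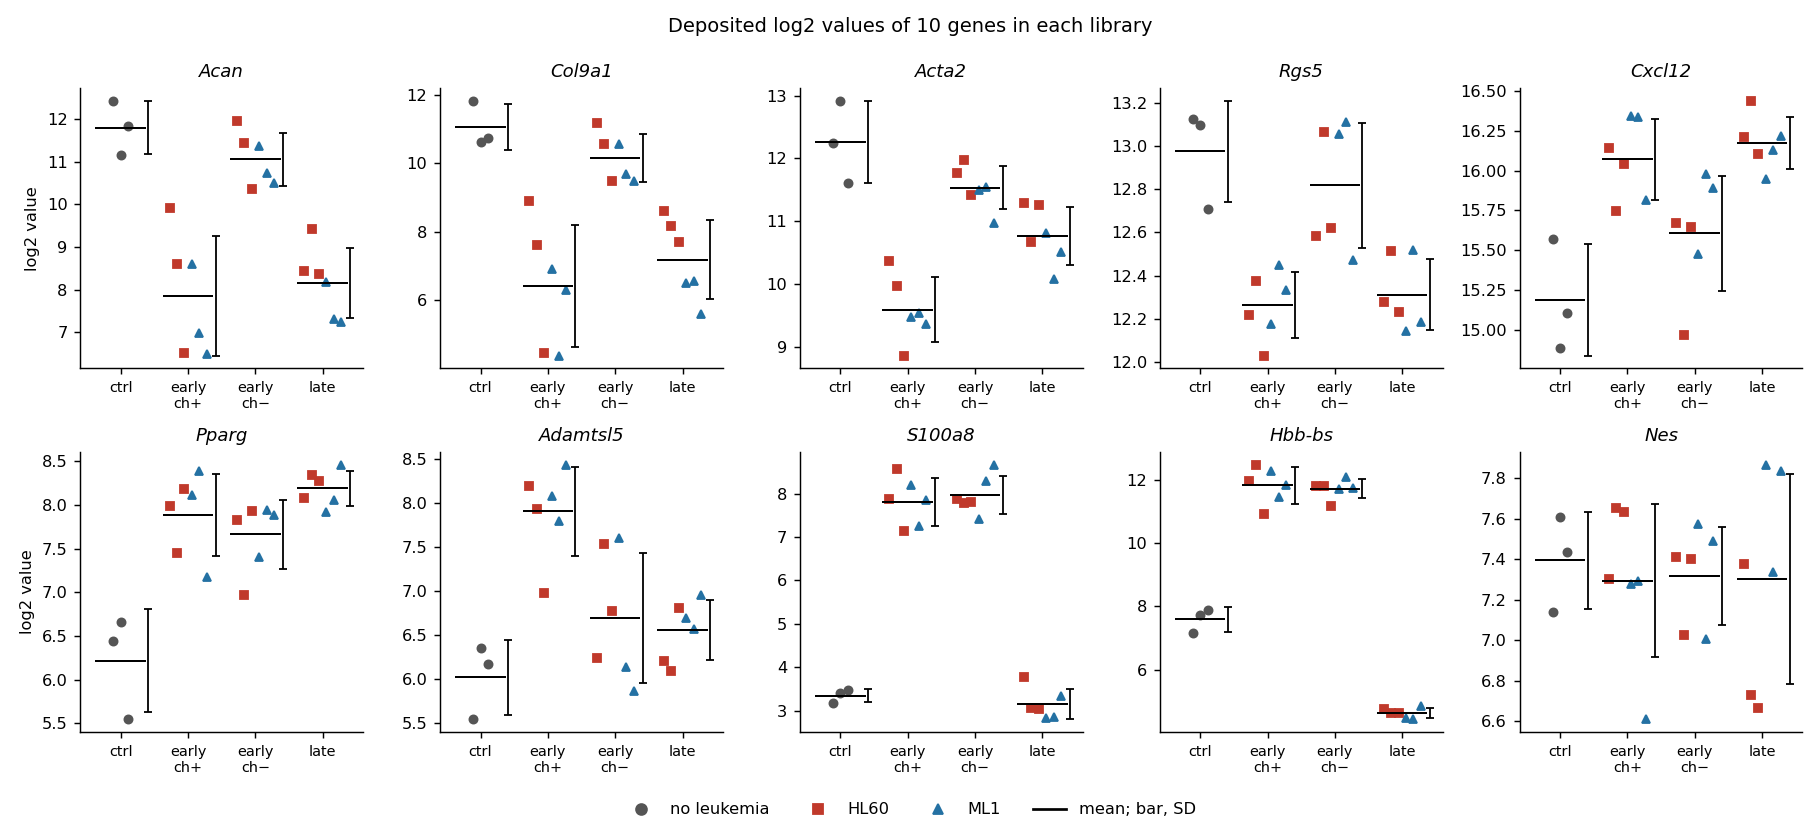
Deposited log2 values of 10 genes in each of the 21 libraries, by group, with group means (lines) and SD (bars). Points are grey circles without leukemia, red squares for HL60 and blue triangles for ML1. Acan, Col9a1, Acta2 and Rgs5 of all ch+ libraries lie below ctrl, Cxcl12 lies above ctrl, S100a8 and Hbb-bs are high in both early groups, and Nes overlaps.

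CAR cell genes were raised in ch+ cells. Of 40 listed genes, 39 were tested, 22 were higher and none was lower, with a median of 0.67. Among the niche factors, 6 of 10 were higher. Cxcl12 (chr6:117168535-117181367), the chemokine that retains blood stem cells and the most abundant gene of the list, was at 15.57, 14.89 and 15.11 in ctrl and at 15.74 to 16.34 with a median of 16.09 in ch+. All ch+ libraries lay above ctrl (difference 0.88, SE 0.19, adjusted p = 0.00395). Kitl, stem cell factor, was at 10.27, 9.98 and 9.88 in ctrl and at 10.61 to 11.19 with a median of 10.90 in ch+ (difference 0.82, SE 0.19, adjusted p = 0.0108). Angpt1, a ligand of the receptor Tie2 on vessels and stem cells, was at 7.90, 6.99 and 7.28 in ctrl and at 8.17 to 9.21 with a median of 8.80 in ch+ (difference 1.36, SE 0.22, adjusted p = 0.000196). The growth factor Igf1 rose by 1.1, a call lost without ctrl 374 or ctrl 375. Of the niche factors that were not called, the colony-stimulating factor Csf1 was at 0.42 and the cytokine Il34 at 0.81.

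Of 5 tested CAR transcription factors 4 were higher, with Ebf3 (0.88), which keeps CAR cells from turning into bone, and Ebf1 (0.65) among them, and Foxc1 (0.30), another factor of these cells, not called. The Ebf3 call was lost without ctrl 374. Among genes of CAR identity, 12 of 24 were higher. Lepr, the leptin receptor by which these cells are commonly traced, was at 13.06, 12.24 and 12.50 in ctrl and at 12.83 to 13.71 with a median of 13.21 in ch+. The groups overlapped, and the call (difference 0.67, SE 0.19, adjusted p = 0.0355) was lost without ctrl 374 or ctrl 375. Grem1 (1.24), an antagonist of bone morphogenetic proteins, and Adipoq (1.16), adiponectin, had larger rises without overlap. In ch- versus late, 16 of the 22 genes were lower in ch-, as were 25 of all 39 tested CAR genes, beside 10.2% of all tested genes. Only 4 of the 22 were also higher in ch+ than in ch-: Cxcl12, Ebf1, the transcription factor Snai2 and the complement inhibitor Serping1, all 4 named after their values were seen. The Snai2 call against ctrl was lost without ctrl 374 or ctrl 375. The summed level was 17.10 to 17.48 in ctrl and 17.67 to 18.08 in ch+.

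Adipocyte genes went both ways. Of 17 tested (23 listed), 4 were higher and 1 lower, with a median of −0.07. Pparg, the main regulator of fat cells, was at 6.44, 6.66 and 5.55 in ctrl and at 7.18 to 8.39 with a median of 8.05 in ch+ (difference 1.67, SE 0.27, adjusted p = 0.000221). Lipoprotein lipase Lpl (0.78), Adipoq and the regulator Cebpa (0.92) made up the other higher genes, and the Cebpa call was lost without ctrl 373, ctrl 375, ch+ 525 or ch+ 538. Plin4, a lipid droplet protein, fell by 1.99. Plin1, the defining droplet protein of mature fat cells, was under the filter at 2.07 to 3.66 in ctrl and 2.08 to 3.33 in ch+. The summed level of the list was 13.72 to 14.07 in ctrl and 14.05 to 14.63 in ch+, with Lpl as its most abundant gene.

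Osteoblast and osteocyte genes showed 1 call among 24 tested (26 listed), with a median of −0.35. The pyrophosphate transporter Ank fell by 1.02. Bglap, osteocalcin, was at 15.25, 15.27 and 15.36 in ctrl and at 14.64 to 15.03 with a median of 14.81 in ch+. All ch+ values lay below ctrl, and the difference was −0.47 (SE 0.56, adjusted p = 0.732) in a fit that shares its spread with late libraries at 9.32 to 13.24. It was called when only the 9 ch+ and ctrl libraries were fitted and with 7 groups by cell line. Of the 24 genes, 12 had all ch+ libraries below ctrl, beside 3.9% of all tested genes, and the osteocyte marker Dmp1 overlapped (−0.56). The most abundant member was Col1a1, the main bone collagen, and the summed level was 21.14 to 21.51 in ctrl and 20.67 to 20.96 in ch+. Of 25 tested fibroblast genes (26 listed), 5 were higher and none lower, with a median of 0.23 (0.34 without ctrl 373 and 0.11 without ctrl 374). They included the surface antigen Ly6a, Entpd2 (1.36), an enzyme that splits extracellular nucleotides, and the matrix protein Dpt (1.14). The calls of Entpd2 and Dpt were lost without ctrl 373 or ctrl 374, that of Entpd2 also without ch+ 523, 525 or 539, and Pdgfra (−0.01), a receptor of most mesenchymal cells, was not called. The most abundant fibroblast gene was the proteoglycan Dcn, with a summed list level of 16.38 to 16.52 in ctrl and 16.35 to 16.58 in ch+. For the endothelial list the median was 0.23, the most abundant gene was the TGF-beta coreceptor Eng, and the summed level was 10.34 to 10.53 in ctrl and 10.71 to 11.15 in ch+.

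Transcripts of red cells and granulocytes were raised in the early sorts, whether cherry labelled or not. Hbb-bs, a beta globin of adult red cells (chr7:103826534-103828096 on GRCm38), was at 7.15, 7.73 and 7.90 in ctrl and at 10.90 to 12.47 with a median of 11.90 in ch+. The ch- libraries lay between 11.17 and 12.08 and the late libraries between 4.44 and 4.87. Its difference between ch+ and ctrl was 4.22 (SE 0.24, adjusted p = 1.28e-12), and that between ch+ and ch- was 0.10 (adjusted p = 0.87). The other globins had similar rises, with Hbb-bt at 4.72, Hba-a1 at 4.23 and Hba-a2 at 3.6. Reads of Hba-a1 and Hba-a2, and of Hbb-bs and Hbb-bt, come from near-identical copies, so their split between copies is uncertain. Of 38 tested red cell genes (49 listed), 15 were higher and none lower, with a median of 0.88. Means were under the filter in both ctrl and late for 4 of the 38, which passed it only through the early groups, and 3 of these 4 were higher. The higher genes included Slc4a1 (4.02), the band 3 anion exchanger, and Alas2 (2.82), the first enzyme of haem synthesis in red cells. The most abundant member was Bnip3l, which clears mitochondria from maturing red cells and is used by other cells. Summed levels lay between 13.16 and 14.22 for ch+ and between 13.24 and 13.93 for ch-, with 11.92 to 12.17 in ctrl and 11.94 to 12.18 in late libraries.

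Of 19 tested neutrophil genes (39 listed), 15 were higher and none lower, with a median of 2.62 (0.93 with no filter on low values). The count and median are not support for a rise of the list, since 8 of the 19 had means under the filter in both ctrl and late and passed it only through the early groups, and all 8 were higher. S100a9 (chr3:90692632-90695721), a subunit of calprotectin and the gene with the largest rise among the called genes without overlap, was at 4.19, 3.72 and 4.5 in ctrl and at 8.04 to 9.70 with a median of 9.04 in ch+ (difference 4.80, SE 0.36, adjusted p = 2.75e-10). Its partner S100a8 was at 3.17, 3.40 and 3.47 in ctrl and at 7.14 to 8.56 with a median of 7.86 in ch+ (difference 4.47, SE 0.34). Granule proteins were among the higher genes, with myeloperoxidase Mpo (3.32) and the elastase Elane (3.00) of primary granules and lactoferrin Ltf (2.64) and the lipocalin Lcn2 (3.48) of secondary granules. Mpo varied within ctrl, where it was at 3.26, 3.48 and 7.16, the last value just below the lowest ch+ library at 7.23. The chitinase-like protein Chil3 rose by 3.94. The most abundant member was Anxa1, an annexin that stromal cells also make, and the summed level was 10.27 to 10.90 in ctrl and 11.66 to 12.57 in ch+.

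Other blood lists had fewer called genes. Among 16 tested monocyte and macrophage genes (38 listed), 2 were higher, with a median of 0.82 (0.64 without ctrl 373, 0.66 without ctrl 374, 0.30 with no filter and 0.65 with a mean of at least 5): Lyz2 (1.03), lysozyme, lost without ctrl 374, ctrl 375 or any of ch+ 524, 538 and 541, and Vcam1 (0.78), an adhesion molecule that stromal cells also carry, lost without ctrl 374. Vcam1 was the most abundant of that list, and the summed level was 12.61 to 12.76 in ctrl and 13.30 to 13.45 in ch+. The defining macrophage receptor Csf1r (2.12 to 3.69 in ctrl, 2.25 to 3.65 in ch+) and Cd68, a lysosomal protein of macrophages, were under the filter. No gene was called among 4 tested of the lymphocyte and dendritic cell list (37 listed, median 0.23, at 0.039 without ctrl 373, 0.068 without ctrl 374 and 0.58 without ctrl 375), 8 of the platelet list (20 listed, −0.049) or 1 of the mast cell list (13 listed, 0.21). Limma gave an unadjusted p under 0.05 to 1 higher and 1 lower gene of the lymphocyte and dendritic cell list, and to 0 genes of the other 2 lists. For the monocyte and macrophage list it did so for 9 higher and 0 lower genes. The B cell gene Cd79a stayed at 0.42 in every ctrl library and the T cell gene Cd3e at 0.62 there and at most 1.54 in ch+, and the platelet factor Pf4 at 2.18 to 3.50. The mast cell genes Cpa3 and Ms4a2 were below 0 in ctrl and ch+. Summed levels in ctrl and ch+ were 11.21 to 11.57 and 11.31 to 11.55 for the lymphocyte and dendritic cell list (most abundant Tcf4, a transcription factor), 13.30 to 13.48 and 12.85 to 13.18 for platelets (most abundant Thbs1, thrombospondin), and 5.22 to 5.99 and 5.27 to 6.38 for mast cells, where the receptor Kit was the tested gene.

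The blood genes were also compared in ch- versus late, whose group means use none of the 9 libraries. Its spread estimate and the filter come from all 21 libraries, so its calls are not independent of those in ch+ versus ctrl. In ch- versus late 2920 genes were called (22.5%), 1596 higher in ch- (12.3%) and 1324 lower (10.2%). With library totals made equal it gave 475 higher and 9686 lower, 4.67% higher beside 54.7%, and that scaling moved the median of all genes by −0.77. Of the 443 genes higher in ch+ than in ctrl, 99 were also higher in ch- than in late (22.3% of the 443 and 6.2% of the 1596), 169 were lower there (38.1% and 12.8% of the 1324) and 175 were not called. The 99 held 28 genes of the blood and red cell lists (28.3%), the other 344 held 4 (1.16%). In part the filter set this, since 26 of the 99 and 3 of the 344 had passed it only through the early groups, 10 and 1 of them blood or red cell genes. Without these, 18 of 73 (24.7%) and 3 of 341 (0.88%) were blood or red cell genes. The 73 still held S100a8, Slc4a1 and Ltf, with late means under the filter, so the filter still set part of this. The 4 genes among the 344, named after their values were seen, were Klf1 (1.62), the erythroid transcription factor, the exonuclease Isg20 (1.91), Anxa1 (0.95) and Vcam1. The Klf1 call was lost without any of the 3 ctrl libraries or ch+ 541, and the Isg20 call without ctrl 374. Of all 85 tested genes of these lists, 45 were higher in ch- than in late (52.9%), and 34 of 73 (46.6%) without the 12 that had passed the filter only through the early groups. Those 73 again held S100a8, Slc4a1 and Ltf, so the filter favoured this share too. Of the 357 lower genes, 165 were higher in ch- than in late (46.2% of the 357 and 10.3% of the 1596), 15 were lower there (4.2%) and 177 were not called. Without the 3 late ML1 libraries, a setting chosen after seeing the data, ch- versus late gave 1690 called genes, 942 higher and 748 lower. Of the same 443 genes, 85 were then higher, 134 lower and 224 not called, with 28 blood and red cell genes among the 85. Of the 357, 92 were higher, 9 lower and 256 not called.

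**Figure D3:**
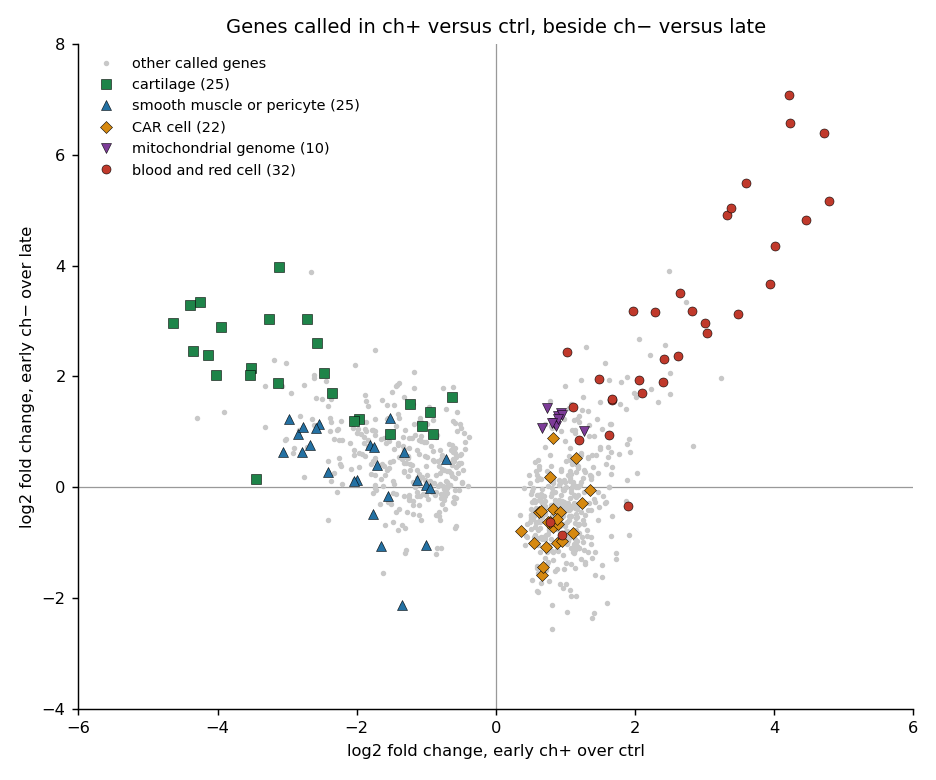
Log2 difference between ch+ and ctrl (horizontal) and between ch- and late (vertical) for the 800 genes called in ch+ versus ctrl, where 1 gene, AY036118, lies beyond the axes. Coloured symbols are members of gene lists with their number, and a gene of several lists is drawn in the last of them. Most blood and red cell genes lie at the upper right, and cartilage genes at the upper left.

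Blood and red cell genes were a small part of each library. Globins held 0.00255% to 0.00463% of the library sum in ctrl and 0.0366% to 0.0982% in ch+. In ch- they held 0.0352% to 0.0718%, and in late 0.000773% to 0.00112%. All genes of the blood and red cell lists held 0.195% to 0.206% in ctrl and 0.286% to 0.369% in ch+, a difference of 0.135 percentage points (exact permutation p = 0.0119, two-sided). This is the smallest p that 84 arrangements of 6 and 3 libraries allow. The difference of the globins alone was 0.0637 percentage points. The lists also hold abundant genes that stromal or other cells make, among them Vcam1, Anxa1 and Bnip3l, so their share is not one of blood cells only. The share of these lists was 0.227% to 0.301% in ch- and 0.228% to 0.31% in late libraries, where the library sums were smaller. The median difference between late and ctrl was −0.20 for the red cell list, −0.11 for the neutrophil list and −0.49 for the monocyte and macrophage list. The part of these transcripts in any other difference between ch+ and ctrl was not tested.

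Promoters of red cell genes are shown because 15 of the 38 tested were called higher, 3 of them after passing the filter only through the early groups, while 23 were not called. GATA1 and its relatives bind the letters AGATAA or TGATAA, which were searched on both strands of RefSeq promoters of GRCm38.p6, from 250 bases before to 50 bases after each start. Of 32851 promoters, 18.6% held at least 1. Of the 15 higher red cell genes, 11 were matched, with 13 promoters, of which 9 held the letters (69.2%), beside 17 of 41 promoters (41.5%) of the 35 matched among all 49 listed. By gene they were in 9 of the 11, 17 of the 35 and 5664 of all 27025. The promoters of Hba-a1 and Hba-a2 are near-identical in sequence and hold the same match. A match describes letters and does not show binding. The promoters of Hba-a1 (chr11:32283422-32283721, plus strand) and Hbb-bs (chr7:103827879-103828178, minus strand) follow, with the matched letters in capitals.
Hba-a1: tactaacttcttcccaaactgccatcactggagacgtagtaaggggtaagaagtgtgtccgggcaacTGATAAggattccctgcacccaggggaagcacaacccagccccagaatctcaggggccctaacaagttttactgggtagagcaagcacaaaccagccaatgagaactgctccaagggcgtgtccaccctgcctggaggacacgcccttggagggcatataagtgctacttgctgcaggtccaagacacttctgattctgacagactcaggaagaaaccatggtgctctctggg
Hbb-bs: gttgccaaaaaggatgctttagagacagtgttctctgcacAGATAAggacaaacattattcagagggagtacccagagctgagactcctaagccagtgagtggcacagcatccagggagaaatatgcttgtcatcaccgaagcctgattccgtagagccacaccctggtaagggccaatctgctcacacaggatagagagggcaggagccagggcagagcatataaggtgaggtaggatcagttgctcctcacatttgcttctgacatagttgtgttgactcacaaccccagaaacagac

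Smooth muscle and cartilage promoters were searched in the same way. The CArG box, bound by serum response factor, was searched only as an exact CC, then 6 letters A or T, then GG. It was in 1.63% of all promoters and in 2 of 20 promoters (10.0%) of the 19 matched smooth muscle genes. Of the lower ones, 1 of 12 promoters held it, that of Myl9, a myosin light chain of smooth muscle that fell by 2.05. Only 12 of the 18 lower genes were matched. Boxes with a mismatch or outside the searched bases were not counted, so a promoter without a match may still hold such a box. The SOX letters ACAAAG or ACAATG were in 28.6% of all promoters. In cartilage they were in 16 of 53 promoters (30.2%) of 36 matched genes and in 9 of 28 promoters (32.1%) of 18 matched lower genes, a share near that of all promoters. Several of these promoters belong to the same gene: by gene they were in 8 of the 36, 4 of the 18 and 8572 of all 27025. The promoter of Myl9 (chr2:156775214-156775513, plus strand), with the CArG box in capitals, and that of Col10a1 (chr10:34389731-34390030, plus strand), with ACAAAG in capitals, read as follows.
Myl9: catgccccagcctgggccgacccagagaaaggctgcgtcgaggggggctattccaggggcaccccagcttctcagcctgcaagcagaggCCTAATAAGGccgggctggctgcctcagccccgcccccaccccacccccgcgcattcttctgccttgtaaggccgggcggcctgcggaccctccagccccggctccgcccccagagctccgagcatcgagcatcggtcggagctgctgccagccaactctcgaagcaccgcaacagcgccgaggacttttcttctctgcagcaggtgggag
Col10a1: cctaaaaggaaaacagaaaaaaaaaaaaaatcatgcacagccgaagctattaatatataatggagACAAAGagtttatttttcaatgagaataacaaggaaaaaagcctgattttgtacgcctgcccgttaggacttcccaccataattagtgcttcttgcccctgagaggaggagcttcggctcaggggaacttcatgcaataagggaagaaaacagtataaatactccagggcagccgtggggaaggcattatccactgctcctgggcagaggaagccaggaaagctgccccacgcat

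Mitochondrial transcripts were higher in ch+ cells. Of the 13 protein-coding genes of the mitochondrial genome, 10 were higher and none lower, with a median of 0.83. The cytochrome oxidase subunit mt-Co2 was at 11.16, 11.04 and 11.30 in ctrl and at 12.04 to 12.86 with a median of 12.43 in ch+ (difference 1.27, SE 0.14, adjusted p = 6.64e-07). All mitochondrial genes together held 5.95%, 6.27% and 6.65% of the library sum in ctrl and 11% to 13.2% in ch+ (difference 5.62 percentage points, exact permutation p = 0.0119, two-sided, the smallest possible). All 10 genes were also higher in ch- than in late, as were 12 of all 13, beside 12.3% of all tested genes. The share was 10.1% to 13.6% in ch- and 8.04% to 14.4% in late libraries, where the library sums were smaller. On the log2 scale, the summed level of the 13 genes was 16.41 to 16.64 in ctrl, 17.24 to 17.67 in ch+ and 15.94 to 16.67 in late, with a median difference between late and ctrl of −0.30. Of 74 tested nuclear genes of oxidative phosphorylation (79 listed), none was higher and 2 were lower, Ndufb2 (−1) of complex I and Sdhc (−0.79) of complex II, both lost without ctrl 373, ctrl 375, ch+ 525 and other single libraries, and the median was −0.043.

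Skeletal muscle genes rose in 9 of 17 tested (39 listed), with a median of 1.19 (0.82 without ctrl 375, 0.34 with no filter on low values and 0.047 with a mean of at least 5), and all 9 were also higher in ch- than in late, as were 14 of all 17, beside 12.3% of all tested genes. Of the 17, 4 had means under the filter in both ctrl and late and passed it only through the early groups, and 3 of these 4 were higher, so neither count is support for a rise of the list. Atp2a1, the calcium pump of fast muscle, was at 2.35, 2.5 and 2.55 in ctrl and at 3.71 to 6.54 with a median of 6.05 in ch+ (difference 3.24, SE 0.60, adjusted p = 0.000941). Skeletal actin Acta1 (2.73) overlapped between the groups, and creatine kinase Ckm (1.98) and myoglobin Mb (2.51) did not. Pax7, which marks muscle stem cells, was at 6, 5.86 and 4.45 in ctrl and at 2.80 to 3.07 in ch+, a fall of −2.49 (SE 0.44, adjusted p = 0.00055). The most abundant gene was the tropomyosin Tpm3, which most cells express, and the summed level was 9.99 to 10.55 in ctrl and 10.21 to 10.98 in ch+.

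The largest difference of any gene was in AY036118, a lincRNA on chromosome 17 that overlaps the ribosomal RNA gene CT010467.1, so that its reads cannot be told apart with certainty from that gene. It was at 17.25, 15.43 and 19.01 in ctrl and at 1.27 to 1.76 in ch+ (difference −15.71, SE 1.70, adjusted p = 4.55e-07). In ch- it reached 15.30 in 1 library and had a median of 1.70, and in late cells it was at most 1.51. CT010467.1 held 29.7% to 34.2% of the library sum in ctrl and 26.5% to 31.7% in ch+ (exact permutation p = 0.179). Whether the preparation of the ctrl libraries differed was not tested.

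Genes that rose in ch+ without being higher in ch- than in late were led by Iqcn (2.83), which was at 4.80 to 5.81 in ctrl and at 6.84 to 8.87 in ch+. Adamtsl5, a secreted protein that binds microfibrils, was at 5.54, 6.36 and 6.17 in ctrl and at 6.98 to 8.44 with a median of 8.01 in ch+ (difference 1.88, SE 0.35, adjusted p = 0.00106). It was also higher than in ch- (1.21). The ankyrin repeat protein Ankrd23 (1.92), the orphan receptor Gpr50 (1.87), the nuclear transport protein Ranbp17 (1.73), the glycosyltransferase B3gnt5 (1.72) and Pparg were also in this group. The calls of Ackr2 (1.78), a scavenger receptor for chemokines, and of the formin Fmnl1 (1.93) were weaker. Ackr2 was lost without ctrl 373 or ctrl 375, and Fmnl1 without any of the 3 ctrl libraries, ch+ 524 or ch+ 538. Isg20 completed the 10 genes of this group. Besides Adamtsl5, only Ankrd23 (1.62), Ackr2 (1.82) and B3gnt5 (1.07) of the 10 were also called higher than in ch-.

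In ch+ versus ch-, 812 genes were called (6.26%), 464 higher (3.58%) and 348 lower (2.68%). With library totals made equal, 841 were higher and 229 lower, 78.6% higher beside 57.1%, and the median of all genes moved to 0.13. The comparison shares all 6 ch+ libraries with ch+ versus ctrl, so some overlap follows from the design and nothing is read from its size. Of the 443 genes higher than in ctrl, 132 were also higher than in ch-, and 113 of those were not higher in ch- than in late. The following genes were chosen after their values were seen. Lbp (chr2:158306493-158332852), the lipopolysaccharide-binding protein, was at 9.18, 9.17 and 8.93 in ctrl and at 10.03 to 10.97 with a median of 10.68 in ch+. It was higher than in ctrl by 1.52 (SE 0.23, adjusted p = 8.33e-05) and higher than in ch- by 1.82. Egfr, the receptor for epidermal growth factor, was at 10.62, 10.96 and 10.53 in ctrl and at 11.67 to 12.13 with a median of 11.87 in ch+, higher by 1.17 (SE 0.18, adjusted p = 8.48e-05) and by 1.47.

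Several genes separated ch+ from ch- by far more than from ctrl. Prg4 differed by 4.09 (SE 0.39, adjusted p = 1.94e-08) from ch-, where it was at 13.44 to 14.73. Fgl2, a fibrinogen-like protein, was at 10.30, 11 and 10.85 in ctrl, at 11.25 to 12.34 with a median of 11.74 in ch+ and at 7.98 to 8.50 in ch-. The differences of ch+ were 1.06 and 3.56. The phospholipase Pla1a differed by 1.25 and 3.36, the chloride channel protein Clic5 by 1.09 and 3.32, the growth factor Hbegf by 1.17 and 2.47, Medag by 1.07 and 2.36 and Cd55, which protects cells from complement, by 1.04 and 1.85. Against ctrl, the calls of Fgl2, Pla1a, Clic5 and Hbegf were lost without ctrl 373, that of Clic5 also without ch+ 539 or ch+ 541. Only 1 gene, Ccn1, a matricellular target of YAP, was higher than in ctrl (0.62) and lower than in ch- (−0.42).

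Of the 357 genes lower than in ctrl, 196 were also lower than in ch-, 132 of them outside the lists. The secreted protease inhibitors Serpina1b (−4.29) and Serpina1a (−3.90) led these. They are near-identical copies whose reads may be split uncertainly. Clec3a, a lectin of cartilage (−3.32), the potassium channel Kcnk3 (−3.02) and Casq2, which stores calcium in muscle (−2.92), were singled out after their values were seen. In ch- versus ctrl 249 genes were called (1.92%), 147 higher and 102 lower, and with library totals made equal 90 higher and 125 lower, 41.9% higher beside 59%. It shares the ctrl libraries with ch+ versus ctrl, so the lists were not overlapped. Values of ch- minus ctrl for genes above were 4.12 for Hbb-bs, 4.68 for S100a9, 1.36 for mt-Co2, 1.04 for Angpt1 and 1.45 for Pparg, all called. They were −0.90 for Col9a1, −0.74 for Acan, −0.72 for Myh11, −0.73 for Acta2, 0.42 for Cxcl12 and 0.53 for Kitl, none called.

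Matrix and basement membrane genes went both ways, 8 of 45 tested (49 listed) higher and 4 lower, with a median of −0.06. These were 17.8% and 8.89%, beside 3.41% and 2.75% of all tested genes. Fn1, fibronectin, was at 16.40, 16.76 and 16.75 in ctrl and at 17.23 to 18.20 with a median of 17.58 in ch+ (difference 0.99, SE 0.24, adjusted p = 0.0109), and it was higher than in ch- by 2.59. Its call against ctrl was lost with quantile normalization. Fibrillin Fbn1 (0.80) and the collagen Col8a1 (1.02) rose, and so did the basement membrane chains Col4a1 (0.59) and Lama4 (0.65). Without ctrl 374 the calls of Fbn1 and Col8a1 were lost, the latter also without ctrl 375, and that of Col4a1 was lost without ctrl 373. Fmod, a small proteoglycan of cartilage and tendon that binds collagen, fell by 2.42 and its relative Prelp by 0.81. The laminin Lama5 (−0.85) was lower with a call lost without ctrl 374, and perlecan Hspg2 (−0.44) with a call lost without any ctrl library, ch+ 525 or ch+ 539.

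Signalling genes of the hedgehog, Wnt, BMP and Notch pathways were higher in 5 and lower in 4 of 64 tested (71 listed), with a median of −0.07. These were 7.81% and 6.25%, beside 3.41% and 2.75% of all tested genes. Beside Ptch1, the lower genes were Notch targets or receptors: Nrarp (−2), a feedback inhibitor, Hey2 (−1.38), a repressor induced by Notch and lost without ctrl 373, ctrl 374 or ch+ 525, and Notch3. The higher genes were Grem1, Ltbp2 (0.89), a matrix protein related to the TGF-beta binding proteins, Chrdl1 (0.82), a BMP antagonist, the Wnt inhibitor Sfrp1 (0.80) and Bmp6 (0.77), a regulator of iron balance. The Ltbp2 call was lost without ctrl 374 or ctrl 375 and the Chrdl1 call without ctrl 375.

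Interferon-stimulated genes were higher in 6 of 38 tested (42 listed), with none lower and a median of 0.54. That was 15.8%, beside 3.41% of all tested genes. Of the 6, 5 were lower in ch- than in late, as were 23 of all 38, beside 10.2% of all tested genes. The exception among the 6 was Rsad2 (1.80), which makes an antiviral nucleotide. Zbp1 (1.39), a sensor of nucleic acids, and Parp14 (1.30) were lost without ctrl 375, the GTPase Iigp1 (1.11) without ctrl 374. The other calls, Ifit1 (1.28), which binds viral RNA, and the class I molecule H2-K1 (0.64), were lost without several single libraries: ctrl 373, ctrl 374 and ch+ 525, 539 and 541 for Ifit1, and ctrl 374, ctrl 375 and ch+ 538 and 539 for H2-K1. Genes of the lysosome and uptake were higher in 6 of 33 tested (34 listed, 18.2%), none lower, and their median was 0.18 (0.083 without ctrl 375 and 0.12 without ch+ 539). Of these 6, 5 were also higher than in ch-. The receptor Axl, which takes part in the uptake of dying cells, was at 9.76, 10.64 and 10.23 in ctrl and at 10.65 to 11.42 with a median of 11.08 in ch+ (difference 0.81, SE 0.23, adjusted p = 0.0373; from ch- 1.77). Saposin precursor Psap (0.45), cathepsin Ctsl (0.54), the membrane protein Lamp2 (0.35) and the sialidase Neu1 (0.94) were also higher. Each of these 5 calls was lost without ctrl 375, those of Axl and Ctsl also without ctrl 373, those of Psap and Lamp2 also without ctrl 374, and that of Neu1 without any ctrl library. Single ch+ libraries also ended calls, 524 and 539 for Psap and Lamp2, 539 and 541 for Ctsl, and all but 541 for Neu1.

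Among all tested genes 3.41% were higher and 2.75% lower. Blood stem and progenitor genes were higher in 4 of 14 tested (20 listed), with a median of 0.34 (0.22 without ch+ 524). They were Ikzf1 (2.01), a lymphoid and myeloid transcription factor that passed the filter only through the early groups, Ly6a, Cebpa and Runx1 (0.41), which was lost without any ctrl library, ch+ 524 or ch+ 525. Of 31 tested proliferation genes (36 listed), only Mki67 was higher, at 8.96 to 9.01 in ctrl and 9.50 to 10.47 in ch+ (difference 0.99, SE 0.25, adjusted p = 0.0207), and the median was 0.14. Histone genes had 1 higher of 28 tested (82 listed), the linker histone Hist1h1b (1.12, lost without ctrl 373, ctrl 374 and several ch+ libraries), and a median of 0.02. Acute inflammation genes had 1 higher, the receptor Hcar2 (1.26), and 1 lower, Nfkbiz (−0.60), of 24 tested (35 listed, median 0.29, at 0.17 without ctrl 373, 0.46 with HL60 alone and 0.17 with ML1 alone). Immediate early genes had 2 higher, Maff (1.56) among them, and 2 lower, Nr4a2 (−0.97) and Fosl2 (−0.50), of 28 tested (30 listed, median 0.06), and these 3 are transcription factors. Stress genes had 3 higher of 40 (43 listed, median 0.22, at 0.36 with HL60 alone), the ferritin chain Fth1 (0.54) and the antioxidant enzymes Gpx1 (0.78) and Gclm (0.90). Shares called were near those of all tested genes for proliferation (3.23% higher), histone (3.57% higher) and inflammation genes (4.17% higher, 4.17% lower). Each of the 8 calls named here from Hcar2 to Gclm was lost without at least 1 ctrl library: 373 for Hcar2, Maff, Nr4a2 and Gpx1, 374 for Hcar2, Nfkbiz, Nr4a2, Fosl2 and Gclm, and 375 for Nfkbiz, Nr4a2, Fosl2, Fth1, Gpx1 and Gclm. Single ch+ libraries also ended the calls of Nfkbiz, Nr4a2, Fosl2 and Gclm.

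Metabolic genes had few calls, all of them lower, and small median differences. The share lower was 11.1% for glycolysis and hypoxia genes, 3.85% for cholesterol and fatty acid genes and 1.16% for ribosomal protein genes. Among all tested genes it was 2.75%. Differences were negative for 20 of 27 glycolysis and hypoxia genes, 22 of 26 cholesterol and fatty acid genes and 59 of 86 ribosomal protein genes. Glycolysis and hypoxia genes had 3 lower of 27 tested (30 listed), with a median of −0.29 (−0.11 without ctrl 373): the glucose transporter Slc2a1 (−0.77), the enolase Eno1 (−0.71) and lactate dehydrogenase Ldha (−0.49), all lost without ctrl 373, with Slc2a1 and Ldha also lost without ctrl 374 and Slc2a1 without ch+ 525. Of 26 cholesterol and fatty acid genes 1 was lower, lanosterol synthase Lss (−1.14, lost without ctrl 374), with a median of −0.26. Of 86 tested ribosomal protein genes (89 listed) 1 was lower, Rpl28 (−0.57), with a median of −0.087 (−0.15 without ctrl 374, −0.053 without ch+ 525, −0.13 without ch+ 539, −0.17 with HL60 alone, −0.039 with ML1 alone and −0.011 with totals made equal). The medians of the adipocyte, endothelial, platelet, proliferation, immediate early, signalling, matrix, nuclear oxidative phosphorylation and histone lists changed sign under at least 1 alternative, so they carry no direction.

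HL60 ch+ versus ctrl had 692 called genes (5.33%) and ML1 ch+ versus ctrl 868 (6.69%). These fits share the ctrl libraries, so they were not overlapped. Values for HL60 and ML1 were −3.45 and −4.45 for Acan, −2.78 and −3.16 for Myh11, 0.79 and 0.98 for Cxcl12, and 4.18 and 4.26 for Hbb-bs. In the test of HL60 against ML1 ch+, limma called 2 genes (0.0154%) and 988 had an unadjusted p under 0.05. Aspn, asporin of cartilage and periodontal matrix, was at 9.91, 10.25 and 9.09 with HL60 and at 7.35, 8.97 and 6.84 with ML1 (difference 2.03, SE 0.37, adjusted p = 0.041). Postn, periostin of fibrous tissue and periosteum, was at 11.96, 12.19 and 11.78 with HL60 and at 10.96, 11.35 and 10.56 with ML1 (difference 1.02, SE 0.18, adjusted p = 0.041). The lines did not overlap for these 2 genes, and the count of 2 fell to 0 without ch+ 523, 524 or 541.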

How the data were processed

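RNA-seq of sorted Nes low cells was read from 1 table of 26852 genes and 21 libraries. Per the labels, the authors aligned reads to mm10 with STAR 2.5.1b, counted genes with RSEM 1.2.29 and used DESeq2 1.10.1. The deposited values were read as the authors' regularized log2 values, although the methods name log10, since their range of −2.33 to 22.4 would be impossible on that scale. The depth of each library is unknown. Groups come from the labels. Genes with a mean of at least 3.32 (log2 of 10) over all libraries were tested (12976) with limma 3.58.1 (R 4.3.3, mean-variance trend, two-sided, Benjamini-Hochberg) in 1 fit of 4 groups, or of 7 groups by cell line, and called under an adjusted p of 0.1. No count model could be used. The method was tested on simulated data. Shares of library sums (Python 3.11.15, pandas 2.3.3, numpy 2.4.6, matplotlib 3.10.9) were compared by exact permutation.

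Members and gene lists were chosen with earlier results of these data known. Lists are described by counts and medians only. Genes were named by rule: the 10 largest rises and falls among called genes without overlap, the 10 largest such rises not higher in ch- than in late, sorting and sex-linked markers, defining cell type markers, the 3 largest called members of each list and direction, and genes differing between cell lines. Other list members and genes were chosen after their values were seen. Some genes that the rule takes are not reported here. Positions are from GENCODE M21 and promoters from RefSeq, both on GRCm38. Of the tested genes, 12945 had a GENCODE record. Alternatives covered filters, scalings, variance settings, thresholds, cell lines and each library left out.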

Additional observations from a re-analysis of the deposited data

Results flagged for a closer look

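Among 221 values of genes, lists and shares, 11 had a ch+ library apart from the other 5 by a gap, relative to the range of the 6 libraries, above the 95% critical value of Dixon's test. Chance gives about 1 in 20 such cases. Library 524 was lowest for Iqcn at 6.84 (next 8.34) and highest for Kcnk3 at 4.75 (next 3.51), the mean of the Schwann cell list at 5.34 (next 4.97) and the mean of the blood stem and progenitor list at 7.42 (next 7.18). Library 541 was lowest for Nes at 6.61 (next 7.28), Neu1 at 5.70 (next 6.51) and Csf1 at 10.77 (next 11.16). Library 525 was highest for Casq2 at 4.54 (next 3.74) and lowest for the share of the 10 most abundant genes at 56.1% (next 58.8%). Library 539 was lowest for Hspg2 at 12.12 (next 12.57), and library 538 for the mean of the cholesterol and fatty acid list at 7.13 (next 7.38). Between cell lines, Postn differed by 1.02 and Aspn by 2.03 in ch+ cells, higher with HL60 in both cases.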

How the results depend on the processing

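Directions of called genes and list medians mostly held over the alternatives: 3894 values of named genes kept direction and side of the threshold, 453 lost the call, 23 gained it and 17, none of them called, changed sign. Against 800 called genes in ch+ versus ctrl, 512 passed an adjusted p of 0.05, 478 a fold change of at least 1 on the log2 scale and 474 with HL60 alone. The 443 higher genes became 268 without the filter, 287 with sample weights, 273 at 0.05, 234 with the fold change and 247 with HL60 alone, and the 357 lower became 227 with HL60 alone. Leaving out each library in turn gave 542 to 794 called, 305 to 443 higher and 237 (without ctrl 374) to 351 lower. The fold change left 385 of 812 genes in ch+ versus ch- (676 to 822 on leaving out libraries). In ch- versus late, 2920 became 4515 without the filter, 1690 without the late ML1 libraries (chosen after seeing the data), 10161 with library totals made equal and 1138 with the fold change (2507 to 2854). In ch- versus ctrl, 249 became 156 with sample weights and 156 at 0.05 (136 without ctrl 374, and likewise without ctrl 375, to 280). HL60 versus ctrl gave 461 at 0.05 instead of 692 (489 to 604). HL60 versus ML1 gave 4 with quantile normalization instead of 2, 0 without ch+ 523, 524 or 541, and up to 6 without ch+ 538. The share of the 10 most abundant genes changed sign from −1.38 to 0.0429 percentage points without the most abundant gene. With HL60 alone, Postn was 0.0774, Aspn 0.14, Nes 0.13 and Kit −0.0643. With ML1 alone, Pecam1 was −0.0816, Cdh5 −0.16, Pdgfra 0.14 and Kcnj8 0.0894. Pdgfra was 0.0628 with totals made equal. Without single libraries, Nes ranged from −0.23 to 0.0376, Pdgfra from −0.11 to 0.0479, Kcnj8 from −0.50 to 0.0788 and Kit from −0.00322 to 0.38. Alternatives for counts shared by 2 comparisons were chosen after seeing the data: genes higher than both ctrl and ch- went from 132 to 223 with totals made equal and 76 at 0.05, and to 85 (without ctrl 373) to 140 on leaving out libraries. The causes were not tested. No paired analysis was run, because the labels give ctrl, ch+ and ch- libraries no shared numbers. The numbers of ch+ (523, 524, 525, 538, 539 and 541) and ch- (527, 528, 529, 543, 544 and 546) run in step. A pairing by that order was not fitted, so the counts in ch+ versus ch- ignore any mouse that both sorts share. Groups split by cell line gave 1062 genes in ch+ versus ctrl instead of 800, with 577 higher and 485 lower. In ch+ versus ch-, where this split was chosen after seeing the data, it gave 1002 genes instead of 812. With 3 ctrl libraries and the depth of each library unknown, small differences and genes of few reads are measured poorly.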
